A study of Mus musculus with 6 samples.

Results

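The 10 genes described here encode NRF2 (gene *Nfe2l2*), its inhibitor KEAP1 (*Keap1*) and enzymes and a transporter that defend cells against oxidants: *Nqo1*, *Hmox1*, *Txnrd1*, *Srxn1*, *Slc7a11*, *Sod1*, *Sod2* and *Sod3*. They form a list of symbols drawn up with earlier results of these data known, and all 10 were found among the 55367 symbols of every library. Polyadenylated RNA was sequenced from kidney cells that bind Dolichos biflorus agglutinin (DBA), a plant lectin used to isolate collecting duct epithelium, at Day115 in 3 groups of 2 libraries each. WT mice had intact *Pkd1* and received saline. ADPKD mice were *Pkd1*-/- and received saline, and ADPKD+MMPP mice were *Pkd1*-/- and received MMPP, a melanin-like nanoparticle that scavenges reactive oxygen species, by repeated intravenous injection. *Pkd1* encodes polycystin-1, which is mutated in most families with autosomal dominant polycystic kidney disease, and the knockout was induced with tamoxifen in male *Pkd1* fl/fl;Cre/Esr1+ mice. The promoter that drives this Cre, whether the WT mice carried the Cre or received tamoxifen, and whether a library came from 1 animal are not given in the sources used here, so that p-values measure the spread between these libraries only.

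NRF2 is a basic leucine zipper transcription factor. In resting cells KEAP1 binds it and presents it to a CUL3 ubiquitin ligase, which leads to its degradation, while oxidants modify cysteines of KEAP1 and let NRF2 reach the nucleus. There it pairs with small MAF proteins on antioxidant response elements and raises genes for quinone reduction, haem breakdown, the thioredoxin system, cystine uptake and NADPH supply. Because this switch works on the protein, the mRNA of *Nfe2l2* and *Keap1* alone does not measure it. The superoxide dismutases convert superoxide to hydrogen peroxide in the cytosol (SOD1), the mitochondrial matrix (SOD2) and outside the cell (SOD3).

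The targeted gene *Pkd1* had 17.7 and 17.2 FPKM in WT, 7.64 and 8.91 FPKM in ADPKD, and 4.34 and 3.99 FPKM in ADPKD+MMPP, where FPKM is fragments scaled by gene length and library size. The principal cell water channel *Aqp2* was high in all 6 libraries, from 677 to 3555 FPKM. The 8 principal cell markers summed to 2091 and 2792 FPKM in WT, 2482 and 949 FPKM in ADPKD, and 5435 and 5455 FPKM in ADPKD+MMPP. *Avpr2* was under 0.1 FPKM throughout. From WT to ADPKD 0 of the 7 tested had a positive mean change or were called, with a median of -0.63. By the sums above, ADPKD replicate 1 lay between the WT libraries, and only ADPKD replicate 2 lay below them. With MMPP 4 were called higher and 1 lower, and 1 and 0 relative to genes of like transcript structure, a step explained below. Markers of other renal cells were present too and moved with the groups. The 7 macrophage and leukocyte markers summed to 73.8 and 81.0 FPKM in WT and 361.6 and 487.7 FPKM in ADPKD, and all 7 were called higher in ADPKD. They summed to 785.9 FPKM in both ADPKD+MMPP libraries, where *Lyz2* alone had 568 and 565 FPKM, *Itgam* was listed at 0, and 1 of the 7 was called higher and 5 lower than in ADPKD, with a median of -1.29 on the log2 scale. Relative to genes of like transcript structure, 3 were called higher and 2 lower, with a median of 0.59. An alternative form of this step, centred on the median change of such genes, called 1 higher and 2 lower, with a median of 0.33. The direction of these markers with MMPP thus depended on that step. Of the 7, *Itgam* and *Ptprc* reached 1 FPKM in ADPKD only, so they entered the tests through that group. All 7 intercalated cell markers and all 4 podocyte markers were called lower in ADPKD than in WT. Of 6 endothelial markers 5 were called lower and 1 higher, and of 6 fibroblast and mural cell markers 4 were called higher and 1 lower. Of 10 genes that respond to tissue dissociation, 7 were called lower in ADPKD than in WT, and with MMPP 6 were called higher and 3 lower than in ADPKD. The 13 proximal tubule markers summed to between 233 and 505 FPKM with saline and to 1852 and 1871 FPKM with MMPP, and 11 of them were called higher in ADPKD+MMPP than in ADPKD. Of all tested genes, 14.2% were called higher and 12.5% lower from WT to ADPKD, and 27.9% and 43% from ADPKD to ADPKD+MMPP. Relative to genes of like structure, 4227 of 12375 protein-coding genes were called higher and 3003 lower with MMPP. In bulk RNA, fewer cells of a type and less RNA per cell cannot be told apart, and the part of these markers in the results below was not tested. The WT and ADPKD libraries held 30.5 to 33.2 M reads by the steps between low FPKM values, and the ADPKD+MMPP libraries 11.9 and 11 M reads.

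The ADPKD+MMPP libraries also stood apart in how their values behave. Odd read numbers made up 6.67% and 6.81% of their low values, and 33.7% to 35.7% of those in the saline libraries. Across 12375 tested protein-coding genes, the change from ADPKD to ADPKD+MMPP followed transcript structure, measured here as the percent of exon bases that belong to a single transcript of the annotation. In bins of 5 percentage points of this share, the median log2 fold change was -1.70 in genes with a share under 5% and 1.09 in genes with a share of 95% or more, while the same bins had medians of 0.05 and 0.04 from WT to ADPKD. *Nfe2l2*, *Nqo1* and *Sod3*, with shares of 96.7%, 100% and 100%, fall in the top bin, and *Keap1*, with 28.9%, falls in a bin with a median of -1.31. This trait is shared by both ADPKD+MMPP libraries, so it and the treatment cannot be told apart. The labels name the same tools for all 6 libraries, and whether the values of these libraries were made with the same counting steps as the others was not tested. For the 9 tested genes and the gene lists, changes from ADPKD to ADPKD+MMPP are therefore given as deposited and again relative to genes of like structure in the same library, termed the structure-centred change.

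**Figure D1:**
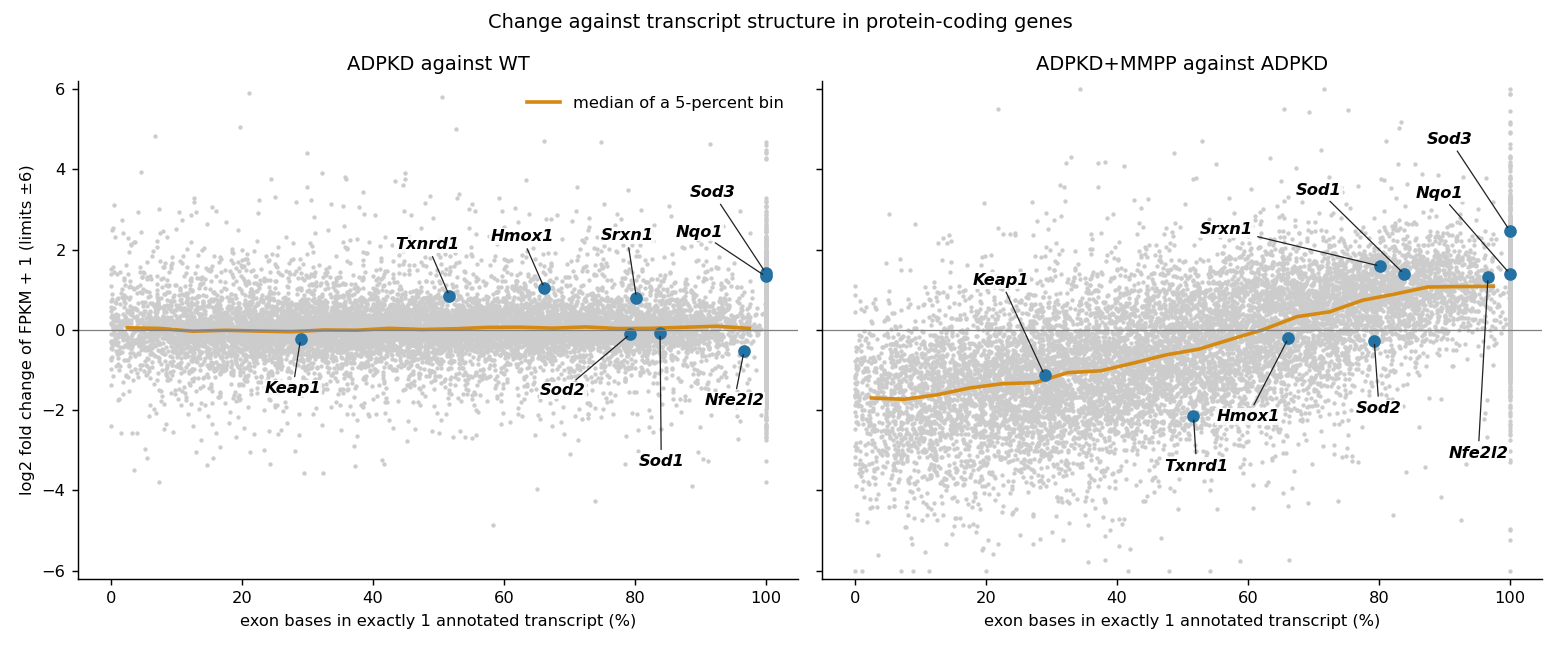
Each grey point is a protein-coding gene, placed by the percent of its exon bases in exactly 1 annotated transcript (x axis) and its log2 fold change of FPKM + 1 (y axis), for ADPKD against WT (left) and ADPKD+MMPP against ADPKD (right). The orange line, the median of each 5-percent bin, is flat on the left and climbs from -1.70 to 1.09 on the right, where *Nfe2l2*, *Nqo1*, *Keap1* and *Sod1* (blue) lie close to it, *Sod3* lies above it and *Txnrd1* and *Sod2* lie below it.

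The antioxidant response element is the sequence through which NRF2 acts, so the promoters of these genes were searched for its core, TGACNNNGC, on both strands. RefSeq windows on GRCm38.p6, from 250 bases before to 50 bases after a transcription start, were at hand for 8 of the 10 genes, in 10 windows, and those of *Hmox1* and *Sod3* were not used here. The core was found in 4 of the 10 windows, those of *Nfe2l2*, *Srxn1*, *Sod1* and 1 of the 3 starts of *Txnrd1*, and in 12.4% of all 32851 windows. The 4 stretches are shown because they are the places in these genes where such a core lies near a start, written on the strand of the gene with the core, or its reverse complement GCNNNGTCA, in capitals.
*Nfe2l2*, chr2:75704885-75704913, minus strand: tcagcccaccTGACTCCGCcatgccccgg
*Srxn1*, chr2:152105542-152105570, plus strand: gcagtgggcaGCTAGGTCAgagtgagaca
*Txnrd1*, chr10:82859104-82859132, plus strand: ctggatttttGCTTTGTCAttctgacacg
*Sod1*, chr16:90220696-90220724, plus strand: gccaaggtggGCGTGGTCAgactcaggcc
The core of *Nfe2l2* begins 240 bases before the start on the gene's own strand, those of *Txnrd1* and *Sod1* lie 92 and 56 bases before it on the opposite strand, and that of *Srxn1* begins at base 29 of the transcript. None of the 4 overlaps the AP-1 words TGACTCA or TGAGTCA. The windows of *Keap1*, *Nqo1*, *Slc7a11* and *Sod2* held no such letters, which says nothing about elements farther from the start.

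All tests used limma on the log2(FPKM + 1) scale, and a gene was called when it changed by 1.5-fold or more and its unadjusted P was under 0.05, the thresholds of the study's methods. Of the 10 genes, 9 passed the filter of at least 1 FPKM in at least 2 libraries; *Slc7a11* did not. In ADPKD against WT, 3 of these 9 were called higher (*Nqo1*, *Txnrd1* and *Sod3*) and 0 lower with limma, while 14.2% of all 14862 tested genes were called higher, 12.5% lower and 26.7% in either direction. At an unadjusted P under 0.05 alone 1 of the 9 was lower, *Nfe2l2*, by less than 1.5-fold. In ADPKD+MMPP against ADPKD, 5 were called higher (*Nfe2l2*, *Nqo1*, *Srxn1*, *Sod1* and *Sod3*) and 2 lower (*Keap1* and *Txnrd1*), beside 27.9% of all genes higher, 43% lower and 70.9% in either direction. From WT to ADPKD+MMPP the same 5 were called higher and the same 2 lower, beside 30.1%, 43.8% and 73.9% of all genes. In both of these comparisons the median change over all tested genes was -0.36 on the log2 scale. After structure centring, 4227 of 12375 protein-coding genes were called higher and 3003 lower from ADPKD to ADPKD+MMPP, and of the 9 genes *Sod3* and *Keap1* were called higher and *Txnrd1* and *Sod2* lower. Centring on the median change of each bin kept these calls except that of *Keap1*. When the bins also held non-coding genes, *Nfe2l2* and *Nqo1* kept their calls, at 1.54 and 1.62. The ADPKD libraries enter both of the first comparisons, so a high value in them raises the first change of a gene and lowers the second.

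**Figure D2:**
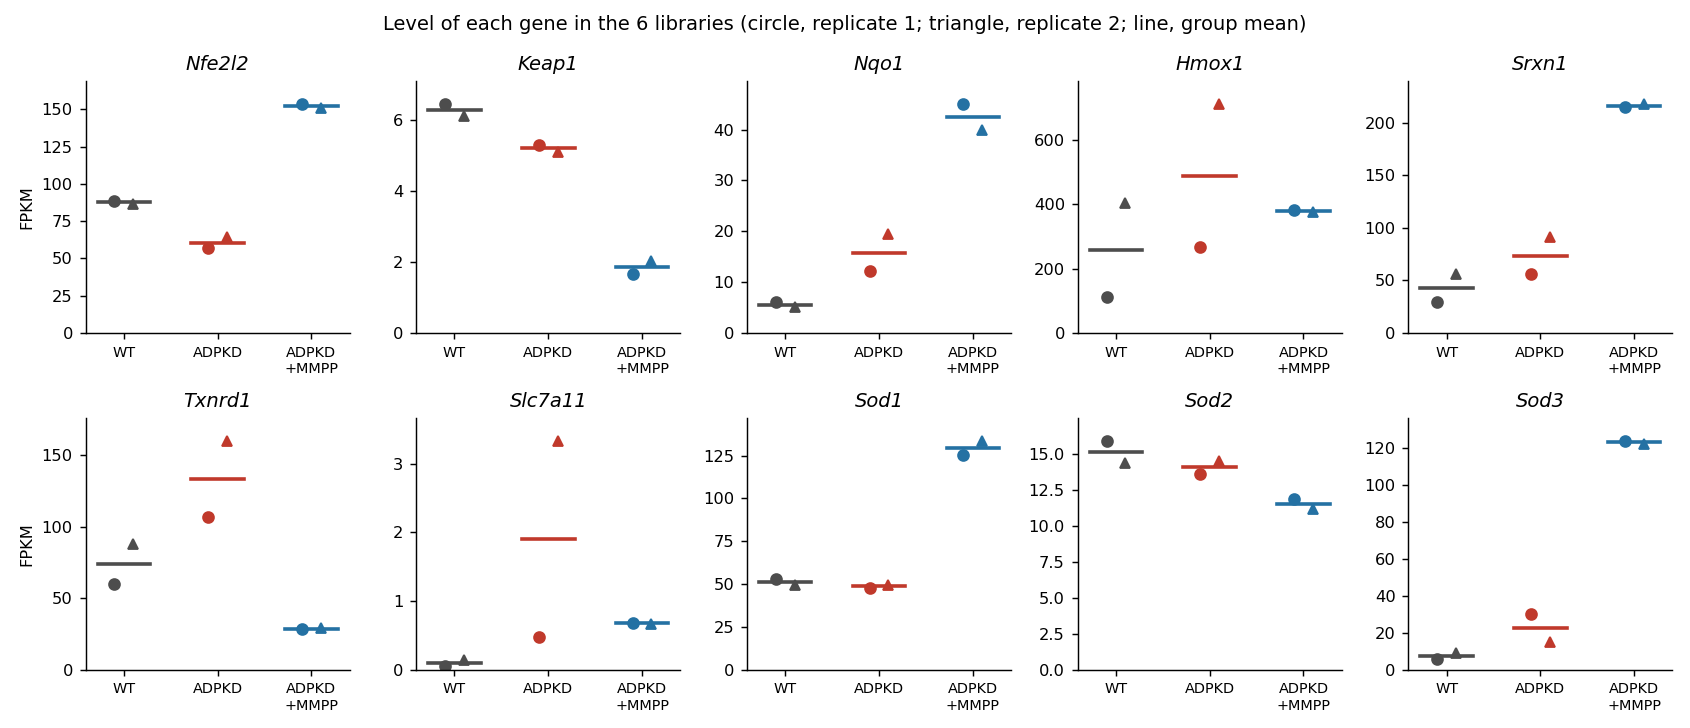
FPKM (y axes, from 0) of each of the 10 genes in the WT, ADPKD and ADPKD+MMPP libraries, with replicate 1 as a circle, replicate 2 as a triangle and the group mean as a line. *Nqo1* and *Sod3* climb over the 3 groups without overlap, *Txnrd1* is highest in ADPKD and lowest in ADPKD+MMPP, and *Hmox1* differs widely between the replicates of WT and of ADPKD.

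*Nfe2l2* (chr2:75675513-75704641, minus strand, 2 annotated transcripts) encodes NRF2 itself. It had 88.8 and 86.5 FPKM in WT, 57.0 and 64.2 FPKM in ADPKD, and 154 and 151 FPKM in ADPKD+MMPP. ADPKD was the lowest group and ADPKD+MMPP the highest, with no overlap among the 3. Between WT and ADPKD *Nfe2l2* had a log2 fold change of -0.53 (SE 0.12, adjusted p = 0.0266), short of a call by its size. A limma fit of these 2 groups alone gave an adjusted p of 0.0647. Centring by transcript structure gave -0.67, which was called, as it was under 4 other scalings and in the fit without ADPKD replicate 2. In ADPKD+MMPP relative to ADPKD it rose by 1.32 (SE 0.12, adjusted p = 0.000217) as deposited. The structure-centred change was 0.19 (SE 0.12, adjusted p = 0.203) and was not called. Against WT the ADPKD+MMPP level was 0.79 higher as deposited (adjusted p = 0.00147) and -0.48 after structure centring, so that the sign itself depended on this step.

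*Keap1* (chr9:21229730-21239361, minus strand, 6 transcripts) encodes the adaptor that holds NRF2 for degradation. It had 6.44 and 6.09 FPKM in WT, 5.29 and 5.09 FPKM in ADPKD, and 1.66 and 2.03 FPKM in ADPKD+MMPP. The WT and ADPKD libraries were close and the ADPKD+MMPP libraries the lowest. The WT to ADPKD change of -0.23 (SE 0.12, adjusted p = 0.219) did not pass the test. Between ADPKD and ADPKD+MMPP *Keap1* fell by 1.12 (SE 0.12, adjusted p = 0.000445) as deposited and was 0.62 higher (SE 0.12, adjusted p = 0.00396) after structure centring, a change of direction in which both values were called. The median change of its bin was -1.31, near its own. An alternative chosen after seeing the data, which centred each bin on the median change of its genes in place of their median level, gave *Keap1* 0.23 (SE 0.12, adjusted p = 0.136), so that its call as higher was not kept. A stretch of 510 bases, 10.9% of its exon bases, also lies in the antisense gene *Gm16754*, and the strandedness of the counting is not given in the sources used here.

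*Nqo1* (chr8:107388225-107403206, minus strand, 1 transcript) encodes NAD(P)H quinone dehydrogenase 1, which reduces quinones in a single step and is among the most used readouts of NRF2. It had 6.04 and 5.05 FPKM in WT, 12.2 and 19.4 FPKM in ADPKD, and 45.0 and 40.0 FPKM in ADPKD+MMPP. Each group lay wholly above the one before it. In ADPKD against WT it rose by 1.33 (SE 0.23, adjusted p = 0.0123), and it was called under each of the 23 settings tried, with changes from 1.02 to 1.65. Under MMPP treatment it rose by 1.40 (SE 0.23, adjusted p = 0.00218) as deposited, and the structure-centred change of 0.28 (SE 0.23, adjusted p = 0.314) was not called. Against WT, *Nqo1* in ADPKD+MMPP was called higher both ways, by 2.73 as deposited and by 1.47 after centring.

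*Hmox1* (chr8:75093621-75100589, plus strand, 2 transcripts) encodes haem oxygenase 1, which opens haem to biliverdin, iron and carbon monoxide and is induced in macrophages as well as in epithelium. It was the most abundant of the 10 in FPKM, with 111 and 404 in WT, 267 and 712 in ADPKD, and 381 and 376 in ADPKD+MMPP. The WT and ADPKD libraries overlapped, and replicate 2 was 3.64 times replicate 1 in WT and 2.67 times in ADPKD, a larger gap than in 99.8% and 97.8% of tested genes. *Hmox1* passed the test in none of the 3 comparisons, with changes of 1.04 (SE 0.70, adjusted p = 0.314), -0.20 (adjusted p = 0.8) and 0.83 (adjusted p = 0.309). The structure-centred change from ADPKD to ADPKD+MMPP was -0.39 (adjusted p = 0.631) and was not called. The change from WT to ADPKD was 1.97 and called without WT replicate 2, and 0.11 without WT replicate 1. No difference of *Hmox1* between the groups was detectable beyond the spread of its replicates.

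*Srxn1* (chr2:152105516-152111376, plus strand, 3 transcripts) encodes sulfiredoxin, which repairs over-oxidised peroxiredoxins. It had 29.4 and 55.7 FPKM in WT, 55.8 and 91.0 FPKM in ADPKD, and 215 and 218 FPKM in ADPKD+MMPP. WT replicate 2 reached the level of ADPKD replicate 1, while both ADPKD+MMPP libraries stood well above the rest. The WT to ADPKD change of 0.80 (SE 0.36, adjusted p = 0.152) was not called; it was called without WT replicate 2 (1.25) and without ADPKD replicate 1 (1.15), and was 0.35 without WT replicate 1 and 0.45 without ADPKD replicate 2. With MMPP it rose by 1.59 (SE 0.36, adjusted p = 0.00779) as deposited, and the structure-centred change of 0.65 (SE 0.36, adjusted p = 0.157) did not pass the test. Against WT the level in ADPKD+MMPP was called higher both ways, by 2.39 and by 1.41 after centring.

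*Txnrd1* (chr10:82833951-82897712, plus strand, 8 transcripts) encodes the cytosolic selenoenzyme that keeps thioredoxin reduced at the expense of NADPH. It had 60.1 and 87.6 FPKM in WT, 107 and 160 FPKM in ADPKD, and 28.4 and 28.9 FPKM in ADPKD+MMPP. The 3 groups did not overlap, with ADPKD the highest and ADPKD+MMPP the lowest. Between WT and ADPKD it rose by 0.84 (SE 0.26, adjusted p = 0.0622), a call that ended without WT replicate 1 (0.57) and without ADPKD replicate 2 (0.55). In ADPKD+MMPP relative to ADPKD it fell by 2.15 as deposited (SE 0.26, adjusted p = 0.000609), and the structure-centred value of -1.42 (SE 0.25, adjusted p = 0.00279) was called too. It was called lower in this comparison under all 23 settings.

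In both saline groups *Hmox1*, *Srxn1* and *Txnrd1* were all higher in replicate 2 than in replicate 1, by 1.86, 0.90 and 0.54 on the log2 scale in WT and by 1.41, 0.70 and 0.58 in ADPKD. In ADPKD+MMPP the same differences were -0.02, 0.02 and 0.02. *Nqo1* was -0.22 in WT and 0.62 in ADPKD and did not follow this order. As deposited, the common fit gave each of *Hmox1*, *Srxn1* and *Txnrd1* the same error in all 3 comparisons. The spread behind these errors came from the saline libraries.

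*Slc7a11* (chr3:49892526-50443614, minus strand, 5 transcripts) encodes xCT, the light chain of the cystine and glutamate exchanger. It had 0.0611 and 0.146 FPKM in WT, 0.480 and 3.33 FPKM in ADPKD, and 0.681 and 0.672 FPKM in ADPKD+MMPP. These levels stand for about 26 and 63 reads in WT, 222 and 1494 in ADPKD, and 112 and 102 in ADPKD+MMPP, so the gene was above the floor of 3 reads in each library. Both ADPKD libraries lay above both WT libraries, and ADPKD replicate 2 was 6.95 times ADPKD replicate 1. In a fit without the filter the changes were 1.20 (SE 0.54, adjusted p = 0.264) from WT to ADPKD and -0.59 (adjusted p = 0.483) from ADPKD to ADPKD+MMPP, and neither passed the test.

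*Sod1* (chr16:90220754-90226329, plus strand, 2 transcripts) had 52.8 and 49.5 FPKM in WT, 47.9 and 49.5 FPKM in ADPKD, and 125 and 134 FPKM in ADPKD+MMPP. The saline libraries overlapped within a narrow band, and the ADPKD+MMPP libraries lay above them. The WT to ADPKD change was -0.07 (SE 0.12, adjusted p = 0.686). Between ADPKD and ADPKD+MMPP *Sod1* rose by 1.39 (SE 0.12, adjusted p = 0.000157) as deposited, and the structure-centred change of 0.45 (SE 0.13, adjusted p = 0.0213) was under 1.5-fold and not called.

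*Sod2* (chr17:13006846-13040063, plus strand, 8 transcripts), the manganese enzyme of mitochondria, varied little over the 6 libraries. It had 15.9 and 14.4 FPKM in WT, 13.6 and 14.5 FPKM in ADPKD, and 11.8 and 11.1 FPKM in ADPKD+MMPP. WT and ADPKD overlapped, and the ADPKD+MMPP libraries were slightly lower than both. Its changes of -0.10 (adjusted p = 0.577), -0.27 (adjusted p = 0.0872) and -0.37 (adjusted p = 0.0316) were not called in any of the 3 comparisons. Genes with a like share of exon bases in 1 transcript rose by a median of 0.74 from ADPKD to ADPKD+MMPP. Relative to them *Sod2* was lower, with a structure-centred change of -0.94 (SE 0.12, adjusted p = 0.000839), which was called.

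*Sod3* (chr5:52363791-52371418, plus strand, 1 transcript), the secreted enzyme, had 5.92 and 9.01 FPKM in WT, 30.0 and 15.0 FPKM in ADPKD, and 124 and 122 FPKM in ADPKD+MMPP. Each group lay wholly above the one before it. *Sod3* rose by 1.42 (SE 0.34, adjusted p = 0.0317) from WT to ADPKD, and by 0.94 without ADPKD replicate 1. In a limma fit of the WT and ADPKD libraries alone its adjusted p was 0.0687. Under MMPP treatment it rose by 2.48 (SE 0.34, adjusted p = 0.00108) as deposited and by 1.35 (SE 0.32, adjusted p = 0.0101) after structure centring. It was called higher in both comparisons under all 23 settings. Among the 3 dismutases it was the only one called from WT to ADPKD, and the difference between its change and those of *Sod1* and *Sod2* was not tested.

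**Figure D3:**
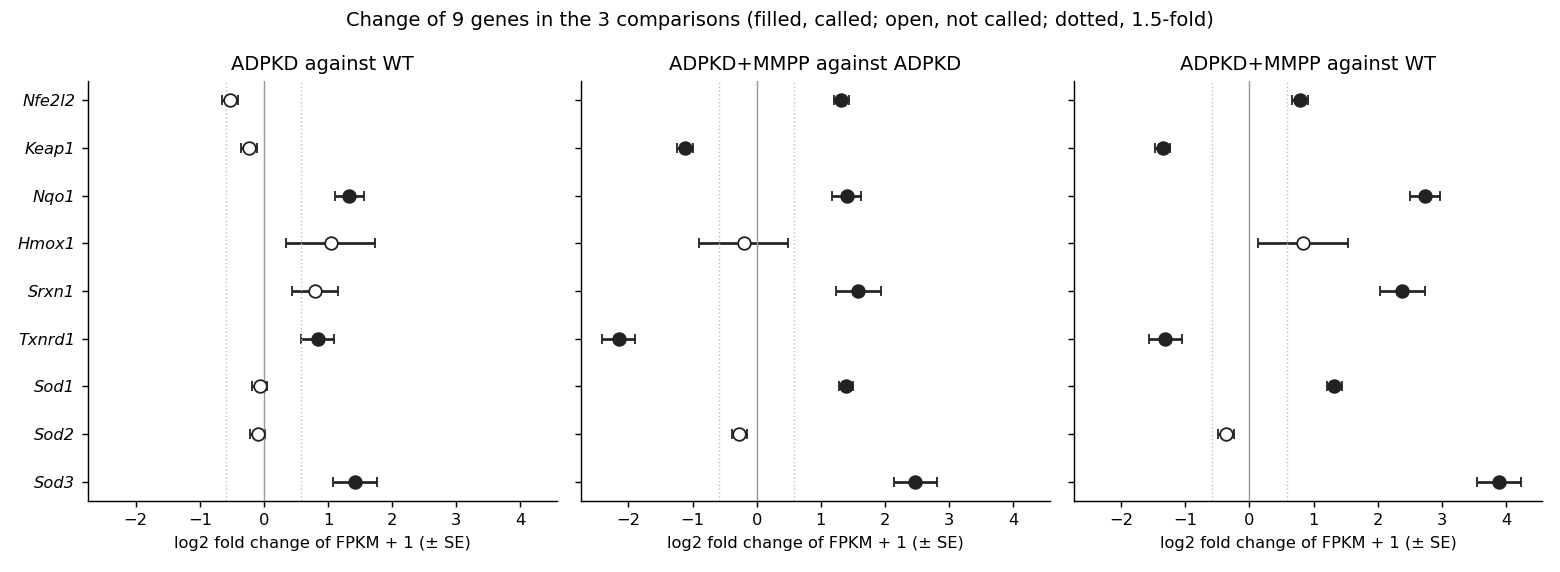
Log2 fold change of FPKM + 1 (x axes, with bars of 1 standard error) of the 9 tested genes in the 3 comparisons, filled where called and open where not, with dotted lines at 1.5-fold. In ADPKD against WT only *Nqo1*, *Txnrd1* and *Sod3* are filled, while 7 of the 9 are filled in each comparison with the ADPKD+MMPP libraries, where *Keap1* and *Txnrd1* lie on the lower side.

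**Figure D4:**
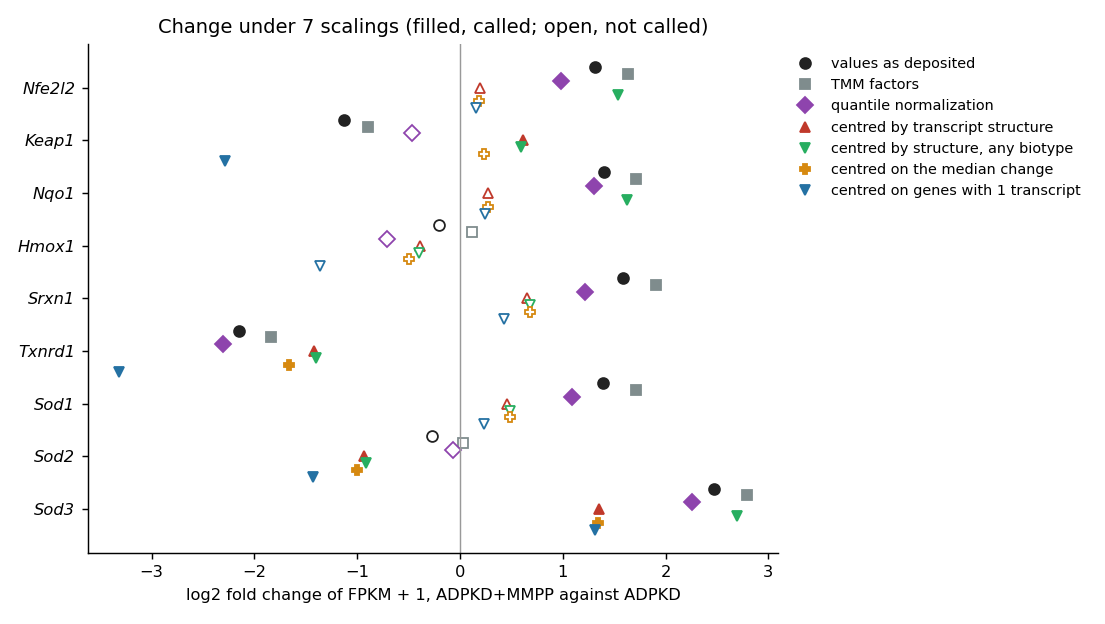
Log2 fold change from ADPKD to ADPKD+MMPP (x axis) of the same 9 genes under 7 scalings, filled where called. *Sod3* stays on the right and *Txnrd1* on the left under all 7, *Srxn1* and *Sod1* are open in all 4 centred scalings, *Nfe2l2* and *Nqo1* are open in 3 of them and filled over genes of any biotype, and *Keap1* changes side in 3 of the 4.

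Genes that regulate NRF2 or pair with it were tested as a list of 12. Between WT and ADPKD, 1 of them was called higher and 0 lower with limma (5 higher and 2 lower at an unadjusted P under 0.05 alone), and the median change was 0.23 against 0.03 over all tested genes. The gene called was *Bach1*, a repressor that competes with NRF2 at the same elements, which had 26.2 ± 1.17 FPKM in WT and 43.3 ± 4.95 FPKM in ADPKD (SD, n = 2) and rose by 0.70 (adjusted p = 0.0152). With MMPP, 2 of the 12 were called higher and 8 lower, beside 27.9% and 43% of all genes. After structure centring these were 2 and 6, beside 4227 and 3003 of 12375 protein-coding genes. *Rbx1*, the ring subunit of the KEAP1 ligase, rose by 1.26 (adjusted p = 0.000199) as deposited and by 0.96 after centring. *Mafg*, a small MAF partner, rose by 0.64 (adjusted p = 0.0114) as deposited and had -0.03 after centring, which was not called. *Nfe2l1*, a relative of NRF2 that controls proteasome genes, went from 79.8 ± 5.50 to 2.29 ± 0.33 FPKM (SD, n = 2). Its share of exon bases in 1 transcript is 11%, and its structure-centred change of -2.72 was called. *Maff*, another small MAF gene with a share of 33.7%, fell by 2.16 as deposited, and its structure-centred change of -0.78 was called too.

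Classical NRF2 targets outside glutathione metabolism were higher in ADPKD than in WT for most of the genes listed. Of 18 listed genes 16 were tested, 15 had a positive change, 10 were called higher and 0 lower, and the median change was 0.68 beside a background of 14.2% called higher. This list, like the others, was chosen with earlier results of these data known, so its count beside the background is a description and not a test. The 10 included *Pgd* (1.22, adjusted p = 0.0236), *Tkt* (0.70) and *Taldo1* (0.62) of the pentose phosphate pathway and malic enzyme *Me1* (1.12). They also included *Ptgr1*, a reductase of reactive aldehydes (1.38, adjusted p = 0.0078), *Ugdh*, which makes the sugar donor for glucuronidation (1.25, adjusted p = 0.0234), the oxidative stress growth inhibitor *Osgin1* (1.22) and the ferritin heavy chain *Fth1* (0.85). *Osgin1* had 34.1 and 40.7 FPKM in WT, 86.1 and 90.1 FPKM in ADPKD, and 16.7 and 10.4 FPKM in ADPKD+MMPP. *G6pdx* (0.42, adjusted p = 0.0622) and *Idh1* (0.52, adjusted p = 0.0323), listed as targets too, were not called. The gene of opposite sign was *Ephx1*, microsomal epoxide hydrolase, which passed an unadjusted P under 0.05 but not the fold threshold. It had 144 ± 0.289 FPKM in WT and 95.9 ± 5.48 FPKM in ADPKD (SD, n = 2; change -0.58, adjusted p = 0.0711). The count of targets called higher was 7 without ADPKD replicate 2, 7 when libraries were centred on genes with 1 transcript and 5 at a fold change of at least 2, and lay between 9 and 11 under the other settings. Under 4 alternative scalings and without ADPKD replicate 1, 1 target was called lower. Macrophage markers rose in the same comparison, as given above, and their part in this count was not tested.

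In ADPKD+MMPP relative to ADPKD, 3 of the 16 targets were called higher and 11 lower, with a median of -0.96, beside 27.9% and 43% of all genes and their median of -0.36. After structure centring 5 were called higher and 8 lower, with a median of -0.52, beside 4227 and 3003 of 12375 protein-coding genes and their median of 0.16. *Abcc4*, an efflux transporter, went from 16.6 ± 0.276 to 0.41 ± 0.133 FPKM and *Ephx1* from 95.9 ± 5.48 to 1.11 ± 0.512 FPKM (SD, n = 2), and both have under 11% of their exon bases in 1 transcript. Their structure-centred changes of -1.75 for *Abcc4* and -3.64 for *Ephx1* were called. *Ptgr1*, with 1 annotated transcript, rose by 1.63 (adjusted p = 0.00068) as deposited, and its structure-centred change of 0.51 (adjusted p = 0.062) was not called. *Cbr3*, a carbonyl reductase, rose by 1.30 (adjusted p = 0.00289) as deposited and by 2.03 after centring.

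The thioredoxin, peroxiredoxin and catalase genes split in both directions. In ADPKD against WT, 2 of 19 were called higher and 3 lower, with a median of 0.10, beside 14.2% and 12.5% of all genes. *Txn1*, cytosolic thioredoxin and the substrate of TXNRD1, had 114 ± 0.918 FPKM in WT, 273 ± 33.4 FPKM in ADPKD and 742 ± 42.5 FPKM in ADPKD+MMPP (SD, n = 2), with no overlap among the groups. It rose by 1.25 (adjusted p = 0.00433) from WT to ADPKD, as *Txnrd1* did, and by 1.44 (adjusted p = 0.000244) from ADPKD to ADPKD+MMPP as deposited. It has 1 annotated transcript, and its structure-centred change with MMPP of 0.32 (adjusted p = 0.0763) was not called. *Prdx6*, a peroxiredoxin that reduces phospholipid hydroperoxides, had 20.9 ± 0.619 FPKM in WT and 31.9 ± 3.01 FPKM in ADPKD (SD, n = 2) and was called higher. *Txnip*, the inhibitor of thioredoxin, fell by 0.99 (adjusted p = 0.0147) and *Msrb3*, a methionine sulfoxide reductase, by 0.94 (adjusted p = 0.00719). Between ADPKD and ADPKD+MMPP, 8 were called higher and 6 lower as deposited, beside 27.9% and 43% of all genes. After structure centring these were 8 and 3, beside 4227 and 3003 of 12375 protein-coding genes. Catalase (*Cat*), which clears the hydrogen peroxide that dismutases make, was at 29.8 and 26.4 FPKM in WT, 42.9 and 26.8 FPKM in ADPKD, and 219 and 228 FPKM in ADPKD+MMPP. It rose by 2.69 (adjusted p = 0.000174) as deposited and by 2.39 after centring, in libraries whose proximal tubule markers, a cell type rich in catalase, were also higher, and the part of these cells was not tested. *Msrb2* rose by 2.75 (adjusted p = 0.000604) as deposited and by 2.56 after centring. The peroxiredoxin *Prdx2* fell by 1.79 (adjusted p = 0.000159) as deposited and by 0.71 after centring.

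The partners are proteins that work beside the 10, such as chaperones, second subunits and the next enzyme of a path. Between WT and ADPKD 0 of 8 were called in either direction with limma (1 higher and 0 lower at an unadjusted P under 0.05 alone), and the median change was -0.14. Under MMPP treatment, 4 were called higher and 3 lower, beside 27.9% and 43% of all genes, with a median of 0.22. After structure centring these were 5 and 2, beside 4227 and 3003 of 12375 protein-coding genes. The median was then 0.83, beside 0.16 over those genes. *Atox1*, a copper chaperone, rose by 1.78 (adjusted p = 6.04e-05) as deposited and by 2.98 after centring. *Blvra*, biliverdin reductase A, rose by 1.55 (adjusted p = 0.000864) and by 1.36 after centring. *Slc3a2*, the heavy chain that carries xCT to the membrane, fell by 1.82 (adjusted p = 6.59e-05) and by 0.99 after centring, and *Blvrb* fell by 1.56 (adjusted p = 0.000229) and by 1.75.

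NADPH oxidases such as that of phagocytes make superoxide, which the dismutases remove. Of the 6 tested NADPH oxidase genes, 5 were called higher from WT to ADPKD and 0 lower with limma (1 lower at an unadjusted P under 0.05 alone). Their median change was 1.27, beside 14.2% of all genes called higher and 12.5% lower. *Nox4*, an oxidase abundant in kidney, had 0.874 ± 0.271 FPKM in WT and 9.07 ± 3.88 FPKM in ADPKD (SD, n = 2) and rose by 2.38 (adjusted p = 0.00508). *Cybb*, the oxidase subunit of phagocytes, rose by 1.66 (adjusted p = 0.00813) and *Cyba*, the subunit that both oxidases need, by 1.40. *Cybb*, *Ncf1* and *Ncf4* are themselves expressed by phagocytes, whose 7 markers rose in the same libraries. *Ncf1* and *Nox4* passed the filter of 1 FPKM in 2 libraries only through ADPKD. *Ncf1* had 1.06 and 1.21 FPKM there, and *Ncf4* was under 1 FPKM in both WT libraries. The count of genes called higher is thus partly set by the filter. With MMPP, 1 of the 6 was called higher (*Cyba*, by 1.71) and 3 lower, beside 27.9% and 43% of all genes. After structure centring these were 2 and 3, beside 4227 and 3003 of 12375 protein-coding genes. *Cyba* had a structure-centred change of 3.10. *Nox4* was among those lower, at 0.339 ± 0.143 FPKM (change -2.86, adjusted p = 0.000302), with -2.35 after centring.

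**Figure D5:**
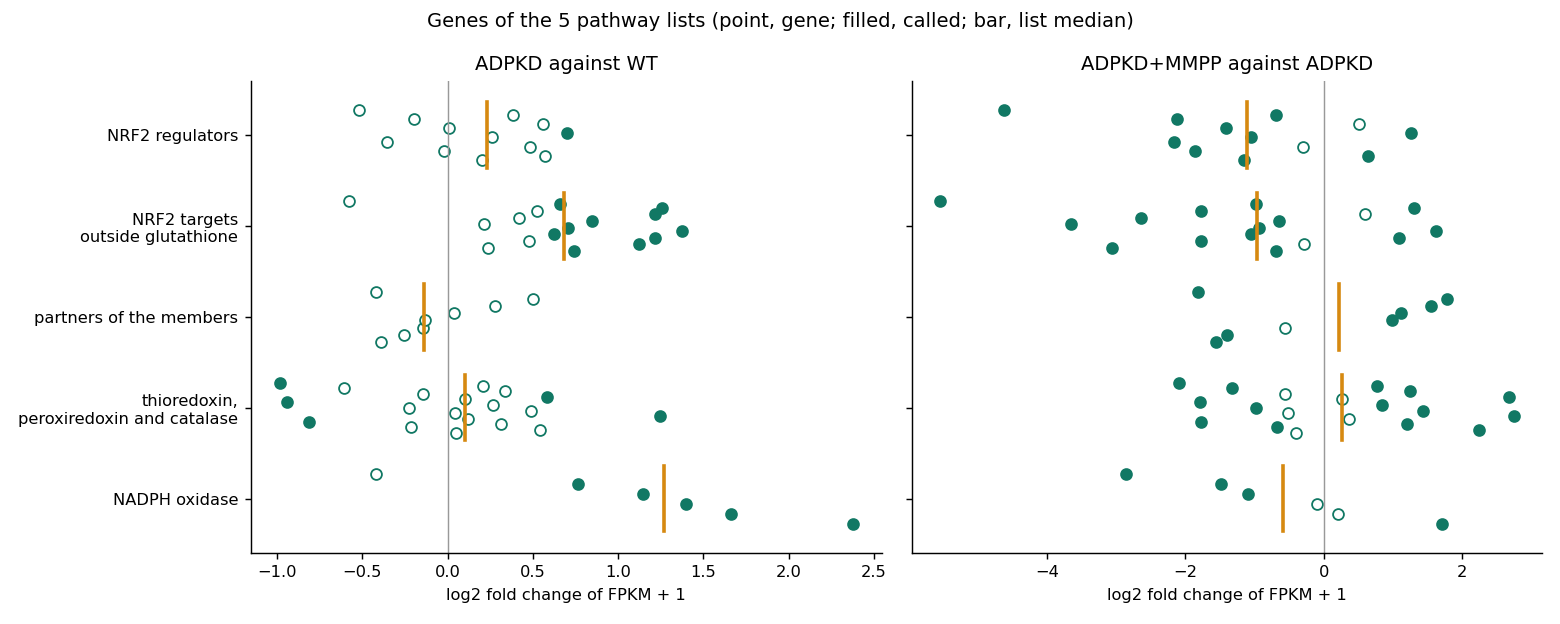
Each point is a gene of 1 of the 5 lists (rows), placed by its log2 fold change of FPKM + 1 (x axes) from WT to ADPKD (left) and from ADPKD to ADPKD+MMPP (right), filled where called, with the list median as a bar. On the left the NRF2 targets and the NADPH oxidase genes lie mostly to the right of 0, with medians of 0.68 and 1.27, and on the right the medians of these lists are -0.96 and -0.59.

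The genes whose log2(FPKM + 1) followed that of *Nfe2l2* most closely over the 6 libraries, among 7166 protein-coding genes, were *Bag3* (Pearson's r = 0.9991), *Zc2hc1a* (0.9982) and *Baz1b* (0.9978). *Bag3*, a co-chaperone of heat shock protein 70, had 127 and 125 FPKM in WT, 109 and 114 FPKM in ADPKD, and 151 and 149 FPKM in ADPKD+MMPP. These are descriptions over 6 libraries in 3 groups. The libraries of a group share their treatment and, for ADPKD+MMPP, their depth and the changes that follow transcript structure. The r values rest on the values as deposited, without structure centring, while the structure-centred change of *Nfe2l2* with MMPP was 0.19 and not called. The part of transcript structure in these r values was not tested.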

How the data were processed

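RNA of DBA-positive kidney cells was measured in 6 libraries, 2 each from WT, ADPKD and ADPKD+MMPP mice. The authors aligned reads to GRCm38 (mm10) with HISAT2 2.1.0, counted them with featureCounts 1.6.0 and deposited FPKM for each library, with the same tools named for all 6 in the labels; how FPKM was made from the counts, the annotation release and the strand setting are not given in the sources used here. The study tested counts with DESeq2, which was not used, because FPKM are not counts. Of 55367 symbols, 53186 matched a gene of GENCODE vM21, which gave positions and transcript structure. Depth was read from the steps between low values, of which 98.6% to 99.1% came out as whole reads within 0.05.

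The 14862 genes that reached 1 FPKM in 2 or more libraries were tested with limma 3.58.1 in R 4.3.3 on the log2(FPKM + 1) scale, which understates changes at low FPKM. All 6 libraries entered a common fit with the group as the only term, and adjusted p-values are Benjamini-Hochberg values over all tested genes. The spread of the ADPKD+MMPP libraries thus also entered the p-values from WT to ADPKD. For structure centring, the median of each library was removed within 20 bins of the percent of exon bases that belong to a single transcript, over protein-coding genes. Centring on the median change of the genes in each bin was added after seeing the data. The steps were tested on simulated data. Replicate numbers in the labels were not used to pair libraries. Named genes were all 10 members, up to 2 called genes with the highest and lowest changes of each list and comparison with a group mean of at least 5 FPKM, and the 3 genes most like *Nfe2l2*. *Tkt*, *Taldo1*, *Me1*, *Fth1*, *Osgin1*, *Pgd*, *G6pdx*, *Idh1*, *Ncf1*, *Ncf4*, *Avpr2* and *Ptprc* were named after their values were seen. The members and lists were chosen with earlier results of these data known. Alternatives covered the pseudocount, filter, scaling, fit, thresholds, a replicate block and each library left out.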

Additional observations from a re-analysis of the deposited data

How the results depend on the processing

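Of the changes of the 9 tested genes under the alternatives, 530 kept their sign and side of the threshold, 27 lost a call, 20 gained a call and 14 changed sign. Alternatives of the thresholds, the filter and the replicate block leave the log2 fold change as it is, so its sign could not change under them. The same holds where the library left out belongs to the group not compared. The count of 530 is thus partly fixed in advance. From ADPKD to ADPKD+MMPP, *Keap1* changed sign when libraries were centred by transcript structure over protein-coding genes (0.62) or genes of any biotype (0.59), *Hmox1* with TMM factors (0.12) and without ADPKD replicate 2 (0.50, the leave-outs giving -0.91 to 0.50), and *Sod2* with TMM factors (0.03). From WT to ADPKD+MMPP, *Nfe2l2* changed sign when centred by structure over protein-coding genes (-0.48) or on genes with 1 transcript (-0.52), *Keap1* by structure over protein-coding genes (0.32) or any biotype (0.30), and *Hmox1* on genes with 1 transcript (-0.47) and without WT replicate 1 (-0.09, the leave-outs giving -0.09 to 1.76). Centring on the median change of each bin, an alternative chosen after seeing the data, gave *Keap1* 0.23 from ADPKD to ADPKD+MMPP and 0.07 from WT, and *Nfe2l2* -0.41 from WT. It called 1 of the 9 lower from WT to ADPKD, 1 higher from ADPKD to ADPKD+MMPP and 3 higher from WT to ADPKD+MMPP. From ADPKD to ADPKD+MMPP it called 1 of the 12 NRF2 regulators higher and 8 lower, and 4 and 8 of the 16 NRF2 targets. The counts were 7 and 4 for the thioredoxin, peroxiredoxin and catalase genes, 4 and 2 for the partners and 2 and 3 for the NADPH oxidase genes. Over 12375 protein-coding genes 3416 were then called higher and 3642 lower. The cause of the changes of sign was not tested. The count of the 9 called lower from WT to ADPKD was 1 with a common FPKM sum, with quantile normalization, centred by structure over protein-coding genes and centred on genes with 1 transcript, and 0 to 1 with a library left out; the count called higher was 2 to 5 with a library left out. From ADPKD to ADPKD+MMPP, 2 were called higher by structure centring over protein-coding genes and 1 by centring on genes with 1 transcript, and 1 was called lower with quantile normalization and with a mean FPKM of at least 5, a filter that *Keap1* did not pass. From WT to ADPKD+MMPP, 3 were called higher by each of these centrings, and 1 lower by structure over any biotype and with a mean FPKM of at least 5. Over all genes, 2102, 5848 and 6017 were called with a mean FPKM of at least 5, where 7631 were tested, in the order of the comparisons above and WT to ADPKD+MMPP last, and 1951 at a fold change of at least 2 from WT to ADPKD. Of the calls from ADPKD to ADPKD+MMPP, 39.3% were higher as deposited, 54% with quantile normalization, 58.5% after structure centring, 48.4% when centred on the median change and 8.4% when centred on genes with 1 transcript. With the replicate number as a replicate block, 4 of the 9 were called higher from WT to ADPKD, *Srxn1* being added (0.80), and 4055 genes in all. Replicate differences correlated across genes by 0.129 between WT and ADPKD, -0.008 between WT and ADPKD+MMPP and 0.014 between ADPKD and ADPKD+MMPP. The labels do not say whether libraries of the same number share a preparation, and these correlations cannot decide it. A lone library left in a group was assumed to vary like the others. With 2 libraries a group, *Hmox1*, *Srxn1* and *Slc7a11* had wide replicate spread, and *Slc7a11* also rests on about 26 and 63 reads in WT, where the log2(FPKM + 1) scale compresses its change.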
